A study of Homo sapiens with 16 samples.

Results

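A set of 10 genes of the G1 checkpoint was followed: the D-type cyclins CCND1 and CCND3, their kinases CDK4 and CDK6, the E-type cyclins CCNE1 and CCNE2, their kinase CDK2, the pocket proteins RB1 and RBL2, and the transcription factor E2F1. They were chosen by name, as members of one pathway and not by their response, and are 10 of the 54127 genes counted in the series. RNA was sequenced from adherent cultures of HT55 and of SW948, both established lines from human colorectal cancers and each a single line. Each line received itraconazole, an azole antifungal, at 5 µM or its solvent DMSO for 6 days, and the experiment asked which transcripts change with the drug. Each of the 4 groups, DMSO-treated HT55, itraconazole-treated HT55, DMSO-treated SW948 and itraconazole-treated SW948, had 4 libraries. Only 1 dose and 1 time point were sampled.

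During G1, D-type cyclins bind CDK4 and CDK6 and start the phosphorylation of the pocket proteins, which hold E2F transcription factors in check. Cyclin E with CDK2 extends that phosphorylation, and E2F1 then drives the genes of DNA replication, among them the genes for cyclin E and for E2F1 itself. In the intestinal epithelium this switch decides whether a cell divides again or leaves the cycle, and CCND1 is frequently raised in colorectal cancer. RNA levels do not show the phosphorylation of these proteins or the activity of the kinases.

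The libraries held 8269406 to 11110814 gene counts each. The other 28.2% to 32.9% of the listed reads were outside genes, ambiguous between genes or not uniquely placed. Most of these were not uniquely placed, at 2842640 to 4064907 per library. Values are given as CPM, counts per 1000000 gene counts after TMM scaling over all 16 libraries. Replicates of treated HT55 differed more than the others. In comparisons of library pairs, the chi-square per gene, which is near 1 for counting noise alone, was 1.43 to 2.34 within DMSO-treated HT55 and 2.45 to 4.85 within DMSO-treated SW948. It was 4.88 to 40.4 within treated HT55, where the highest values, 26 and 40.4, were pairs with replicate 3, and 3.76 to 21.5 within treated SW948. All 10 colon epithelium markers were detected in every library, from 247 counts of CDX1 upwards, and of 8 matched markers of other cell types CD68 had 175 to 1115 counts per library. COL1A1 had 2 to 105 counts and PDGFRB 1 to 25, VWF had at most 5, and PTPRC, CD3E, COL1A2 and ALB had at most 2.

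E2F1 had the largest fall in SW948 and the 2 cyclin E genes moved apart there, so the promoters of E2F1 and CCNE1 are shown with that of CDK4, which fell in both lines. The RefSeq promoters used here (GRCh38.p14, 250 bases before to 50 after a start) covered 7 of the 10 genes, all but CCND1, CCNE2 and CDK2. They were searched on both strands for the E2F words TTTCCCGC, TTTCGCGC, TTTGCCGC and TTTGGCGC, for the E-box CACGTG and for the GC box GGGCGG. In the E2F1 line capitals mark E2F words, in the CDK4 line E-boxes and in the CCNE1 line GC boxes, and the sequences run 5′ to 3′ along the gene.
E2F1 promoter, chr20:33686336-33686635, minus strand: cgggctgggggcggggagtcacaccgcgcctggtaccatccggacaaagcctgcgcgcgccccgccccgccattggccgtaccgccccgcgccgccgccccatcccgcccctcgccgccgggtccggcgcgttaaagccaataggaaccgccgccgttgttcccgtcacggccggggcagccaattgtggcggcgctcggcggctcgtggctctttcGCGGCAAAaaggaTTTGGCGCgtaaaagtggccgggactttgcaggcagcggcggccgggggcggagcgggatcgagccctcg
CDK4 promoter, chr12:57752261-57752560, minus strand: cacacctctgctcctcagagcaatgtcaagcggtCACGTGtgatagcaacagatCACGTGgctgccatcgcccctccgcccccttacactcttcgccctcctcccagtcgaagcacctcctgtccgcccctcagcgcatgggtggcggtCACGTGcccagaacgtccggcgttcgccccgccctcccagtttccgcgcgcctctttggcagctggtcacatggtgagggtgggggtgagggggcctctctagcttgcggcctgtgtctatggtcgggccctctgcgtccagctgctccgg
CCNE1 promoter, chr19:29811741-29812040, plus strand: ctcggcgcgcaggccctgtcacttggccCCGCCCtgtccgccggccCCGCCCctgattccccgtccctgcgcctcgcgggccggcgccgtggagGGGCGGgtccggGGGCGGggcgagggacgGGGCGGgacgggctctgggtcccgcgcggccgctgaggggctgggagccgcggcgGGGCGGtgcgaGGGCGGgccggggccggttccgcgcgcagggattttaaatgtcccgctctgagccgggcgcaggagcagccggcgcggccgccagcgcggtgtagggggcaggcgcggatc
The E2F1 window held 2 E2F words within 33 bases before the start, and 3.31% of all promoters of this length held at least 1. The CDK4 window held 3 E-boxes, and 7.26% of promoters held at least 1. The CCNE1 window held 7 GC boxes, the E2F1 window 6 and the CDK4 window 3, and 45% of promoters held at least 1. No E2F word was in the CCNE1 or CDK4 window, which concerns only these letters and these bases.

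Among the 10 genes, all of which passed the filter on low counts, 2 rose with itraconazole in HT55, 4 fell and 4 did not pass the test (edgeR quasi-likelihood, Benjamini-Hochberg adjusted p under 0.05). Over all 12133 genes tested in HT55, 27.5% rose and 26.5% fell. In SW948, 4 of the 10 rose, 4 fell and 2 did not pass, against 38.9% of genes higher and 41.3% lower among the 12505 tested. These shares are near the background, so the counts alone do not set the 10 genes apart. The median log2 fold change of the 10 genes was -0.20 in HT55 and 0.18 in SW948, beside -0.02 over all genes in each line. In bulk RNA, fewer cells that express a gene and less RNA in each cell cannot be told apart, and this holds for every change given here. The sizes were uneven: in SW948 E2F1 and CCNE2 fell by 3.03 and 2.79 on the log2 scale, CDK4 by 1.35, and CCNE1 rose by 1.09. The treatment comparisons, the tests between lines and the test of the difference in response share libraries and are not independent.

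**Figure D1:**
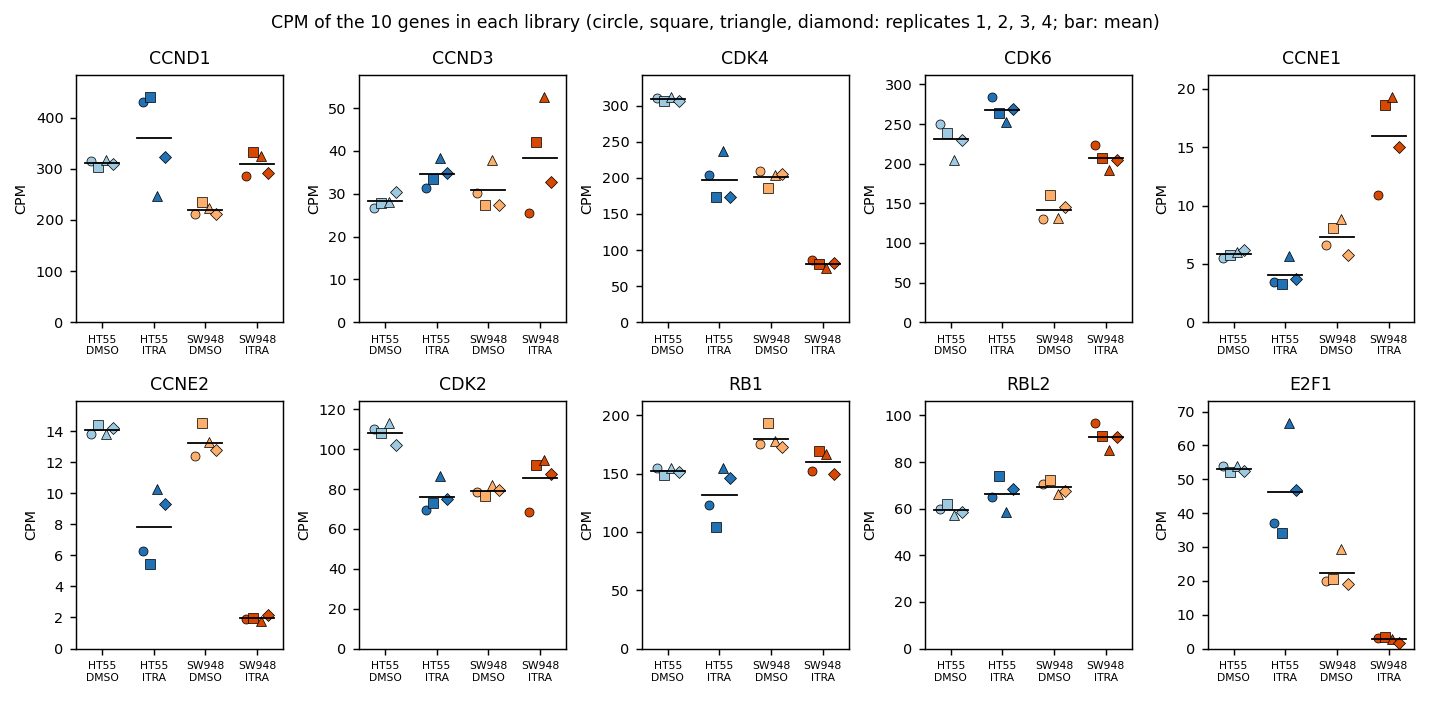
CPM (vertical axes, from 0) of each of the 10 genes in every library, by group on the horizontal axes (ITRA, itraconazole), with replicates 1 to 4 as circle, square, triangle and diamond and the group mean as a bar. E2F1 and CCNE2 are near the axis in treated SW948, at 1.7 to 3.48 and 1.78 to 2.15 CPM, and replicate 3 of treated HT55 lies apart for E2F1 at 66.5 CPM.

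Of the D-type cyclins, CCND1 (ENSG00000110092; GRCh37 chromosome 11, 69455924 to 69469242, plus strand), the main D cyclin of epithelial cells and a Wnt target, had 212, 235, 223 and 211 CPM in DMSO-treated SW948 and 285, 333, 325 and 292 in treated SW948. All 4 treated libraries were above all 4 controls, and CCND1 rose by 0.46 ± 0.07 on the log2 scale (SE, n = 4 per group; edgeR adjusted p = 3.17e-05). In HT55 the controls were at 315, 303, 317 and 309 CPM and the treated libraries at 431, 440, 247 and 322. Replicate 3 of treated HT55 was below every control and the other 3 were above, and the change of 0.20 ± 0.15 did not pass (edgeR adjusted p = 0.283). Without replicate 3 it was 0.36 (edgeR adjusted p = 0.00343), the only 1 of 8 repeats with a single library removed that was called (0.09 to 0.36). The SW948 response minus the HT55 response was 0.28 ± 0.18 (edgeR adjusted p = 0.189), and 0.39 without replicate 2 of treated HT55 (edgeR adjusted p = 0.0469). Of 16 repeats with a single library removed, that difference was called in this 1 only (0.125 to 0.39). Overlapping bases on the opposite strand belong to LTO1 for 10.4% of the CCND1 exons.

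CCND3 (ENSG00000112576; chromosome 6, 41902672 to 42018095, minus strand), the D cyclin best known in blood cells, was the weaker of the pair. In HT55 it had 26.6, 27.8, 28.2 and 30.4 CPM with DMSO and 31.4, 33.4, 38.4 and 34.9 with itraconazole, with no overlap, and rose by 0.29 ± 0.09 (edgeR adjusted p = 0.0175). In SW948 the controls were at 30.3, 27.4, 37.9 and 27.5 CPM and the treated libraries at 25.6, 42.1, 52.6 and 32.7. These groups overlapped, and the change of 0.27 ± 0.18 did not pass (edgeR adjusted p = 0.173). Without replicate 1 of treated SW948, which was below every control, it was 0.44 (edgeR adjusted p = 0.00852). This was the only 1 of 8 repeats with a single library removed that was called. Without replicate 3 of treated SW948 the change was 0.08 (edgeR adjusted p = 0.609). The responses of the 2 lines differed by 0.02 ± 0.22 (edgeR adjusted p = 0.968).

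CDK4 and CDK6, the interchangeable partners of the D cyclins, moved in opposite directions in both lines after TMM scaling. CDK4 (ENSG00000135446; chromosome 12, 58141510 to 58149796, minus strand) had 209, 186, 204 and 205 CPM in DMSO-treated SW948 and 86, 80.9, 74.7 and 82.2 in treated SW948. In HT55 it had 311, 306, 312 and 307 CPM with DMSO and 204, 173, 237 and 173 with itraconazole. Groups did not overlap in either line. In SW948 the log2 level of CDK4 fell by 1.35 ± 0.07 (edgeR adjusted p = 4.7e-10) and in HT55 it fell by 0.65 ± 0.10 (edgeR adjusted p = 0.000351). The fall was larger in SW948, by a difference of -0.66 ± 0.12 (edgeR adjusted p = 0.000127). TSPAN31, on the opposite strand, shares 44.2% of the CDK4 exon bases and was looked at for that reason after its values were known. It was at 72.5 ± 3.76 CPM (SD, n = 4) in DMSO-treated SW948 and 32.5 ± 6.19 in treated SW948, a log2 change of -1.18 (edgeR adjusted p = 2.24e-07), and its change in HT55 was -0.18 (edgeR adjusted p = 0.0769). Whether counting used strand is not given in the sources used here, so reads of the shared bases cannot be assigned with certainty.

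CDK6 (ENSG00000105810; chromosome 7, 92234235 to 92465887, minus strand) had 130, 161, 131 and 145 CPM in DMSO-treated SW948 and 224, 207, 192 and 205 in treated SW948. All treated libraries were above the controls, and CDK6 rose by 0.52 ± 0.08 (edgeR adjusted p = 3.05e-05). In HT55 it went from 250, 239, 205 and 230 CPM to 284, 264, 253 and 269. Again no library overlapped, with a rise of 0.21 ± 0.07 (edgeR adjusted p = 0.0321) that was called in 3 of 8 repeats with a single library removed (0.16 to 0.26, edgeR adjusted p = 0.0065 to 0.0882). The response was larger in SW948 by 0.34 ± 0.11 (edgeR adjusted p = 0.0152), which did not pass on plain library totals, at 0.15 (edgeR adjusted p = 0.31).

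The shift between CDK4 and CDK6 can also be given as a ratio within each library, which does not depend on the scaling between libraries. A lower ratio does not show by itself that CDK6 rose. On plain library totals the CDK6 rise did not pass, at 0.04 in HT55 (edgeR adjusted p = 0.64) and 0.19 in SW948 (edgeR adjusted p = 0.0621). Per kilobase of exon, CDK4 was 5.31 times CDK6 in DMSO-treated HT55 (lowest to highest library 4.92 to 6.02) and 2.89 times in treated HT55 (2.54 to 3.71). In SW948 the ratio went from 5.63 (4.56 to 6.36) to 1.55 (1.52 to 1.58). Control and treated libraries did not overlap in either line, and the treated SW948 libraries differed from each other by less than any other group. CCND1 to CCND3 showed no such shift: the ratio was 13.3 and 12.3 in control and treated HT55, and 8.71 and 10.1 in SW948, with overlapping ranges in both. Ratios are given as a description, without a test.

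**Figure D2:**
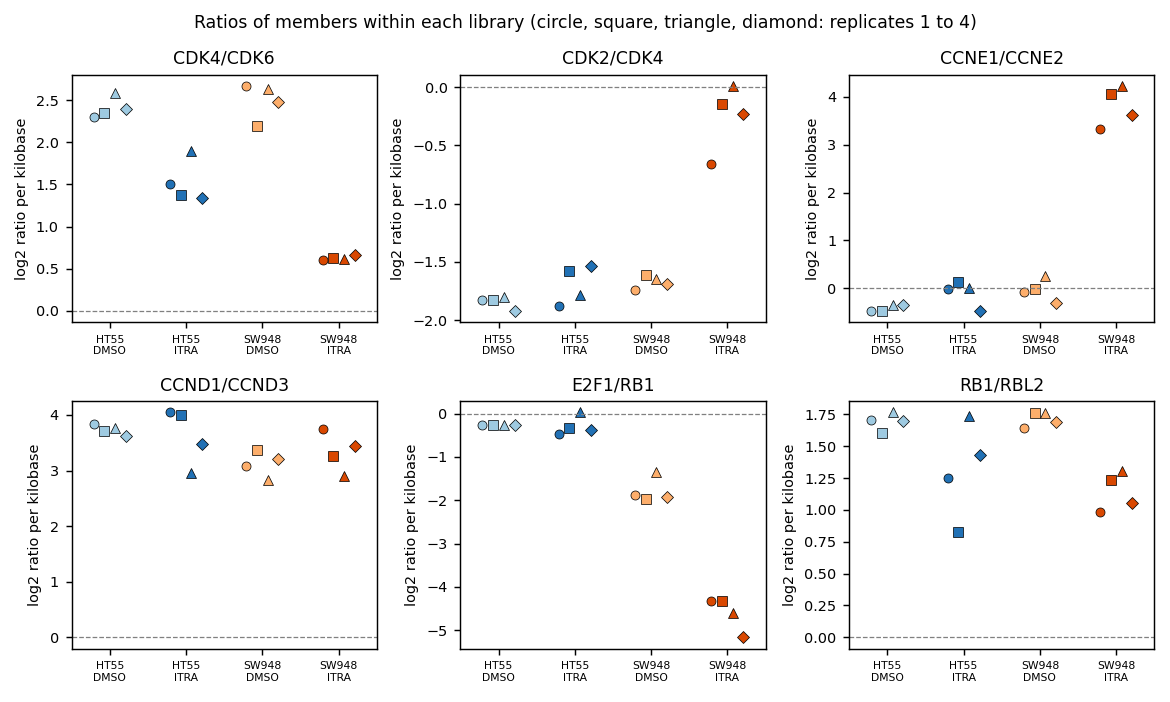
Log2 ratio of 2 genes per kilobase of exon within each library (vertical axes; the dashed line marks equal levels), by group, with replicates 1 to 4 as circle, square, triangle and diamond. CDK4/CDK6 is lower in treated libraries of both lines, whereas CCNE1/CCNE2 and CDK2/CDK4 in treated SW948 stand above every other group, at 3.33 to 4.23 and -0.66 to 0.01.

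The E-type cyclins separated in SW948. CCNE1 (ENSG00000105173; chromosome 19, 30302898 to 30315219, plus strand), an activator of CDK2 at the G1 to S transition, had 6.58, 8.04, 8.86 and 5.78 CPM in DMSO-treated SW948 and 10.9, 18.6, 19.3 and 15 in treated SW948. Every treated library was above every control, and CCNE1 rose by 1.09 ± 0.19 on the log2 scale (edgeR adjusted p = 8.92e-05). In HT55 it had 5.52, 5.76, 6.05 and 6.17 CPM with DMSO and 3.44, 3.31, 5.71 and 3.73 with itraconazole. Replicate 3 of treated HT55 lay within the control range and the other 3 lay below it. CCNE1 fell by 0.52 on the log2 scale (SE 0.20; edgeR adjusted p = 0.0413), but of 8 repeats with a single library removed it was called in 1, that without replicate 3, where it was -0.74 (edgeR adjusted p = 0.00167). It did not pass with the DESeq2 Wald test (adjusted p = 0.0573). The responses differed by 1.64 ± 0.29 (edgeR adjusted p = 9.35e-05). At 28 to 60 counts per HT55 library and 75 to 152 per SW948 library, CCNE1 was among the shallowest of the 10 genes.

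CCNE2 (ENSG00000175305; chromosome 8, 95891998 to 95908906, minus strand), the second cyclin E, had 12.4, 14.5, 13.3 and 12.8 CPM in DMSO-treated SW948 and 1.9, 1.94, 1.78 and 2.15 in treated SW948. This left 14 to 19 counts per treated library against 153 to 166 in controls. CCNE2 fell by 2.79 ± 0.14 on the log2 scale (edgeR adjusted p = 8.3e-10), to 0.144 times the control level. In HT55 it went from 13.8, 14.4, 13.8 and 14.2 CPM to 6.29, 5.43, 10.3 and 9.32, without overlap, and fell by 0.84 ± 0.19 (edgeR adjusted p = 0.00345). The difference of the responses was -1.93 ± 0.25 (edgeR adjusted p = 3.46e-06). INTS8, on the opposite strand, shares 37% of the CCNE2 exon bases. Its change was 0.12 in SW948 (edgeR adjusted p = 0.122) and 0.61 in HT55 (edgeR adjusted p = 0.000596), so it did not fall in either line.

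Per kilobase, CCNE1 was 0.977 times CCNE2 in DMSO-treated SW948 (0.81 to 1.19) and 14 times in treated SW948 (10 to 18.8). In HT55 the ratio was 0.751 (0.718 to 0.787) with DMSO and 0.938 (0.722 to 1.1) with itraconazole, and the ranges overlapped. CCNE1 was thus far above CCNE2 in treated SW948, while in the other 3 groups the ratio stayed between 0.718 and 1.19.

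CDK2 (ENSG00000123374; chromosome 12, 56360565 to 56366573, plus strand), the kinase that cyclin E activates, fell in HT55. It had 110, 108, 113 and 102 CPM with DMSO and 69.6, 72.8, 86.6 and 74.9 with itraconazole, with no overlap and a fall of 0.51 ± 0.08 (edgeR adjusted p = 0.000371). In SW948 it had 78.7, 76.4, 82 and 79.8 CPM in controls and 68.5, 91.9, 94.6 and 87.8 in treated libraries. Replicate 1 was below and the other 3 were above all controls, and the change of 0.08 ± 0.09 did not pass (edgeR adjusted p = 0.43). Without replicate 1 it was 0.19 (edgeR adjusted p = 0.0102), the only 1 of 8 repeats with a single library removed that was called (0.03 to 0.19). Scaled by plain totals the change was -0.26 (edgeR adjusted p = 0.00674), and no direction can be given for CDK2 in SW948. A gene on the opposite strand, ENSG00000258554, shares 14.5% of its exon bases. The responses differed by 0.62 ± 0.13 (edgeR adjusted p = 0.000352). Set against CDK4 per kilobase, CDK2 went from 0.314 (0.299 to 0.327) to 0.837 (0.634 to 1.01) in SW948, and from 0.279 (0.264 to 0.288) to 0.309 (0.272 to 0.345) in HT55.

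**Figure D3:**
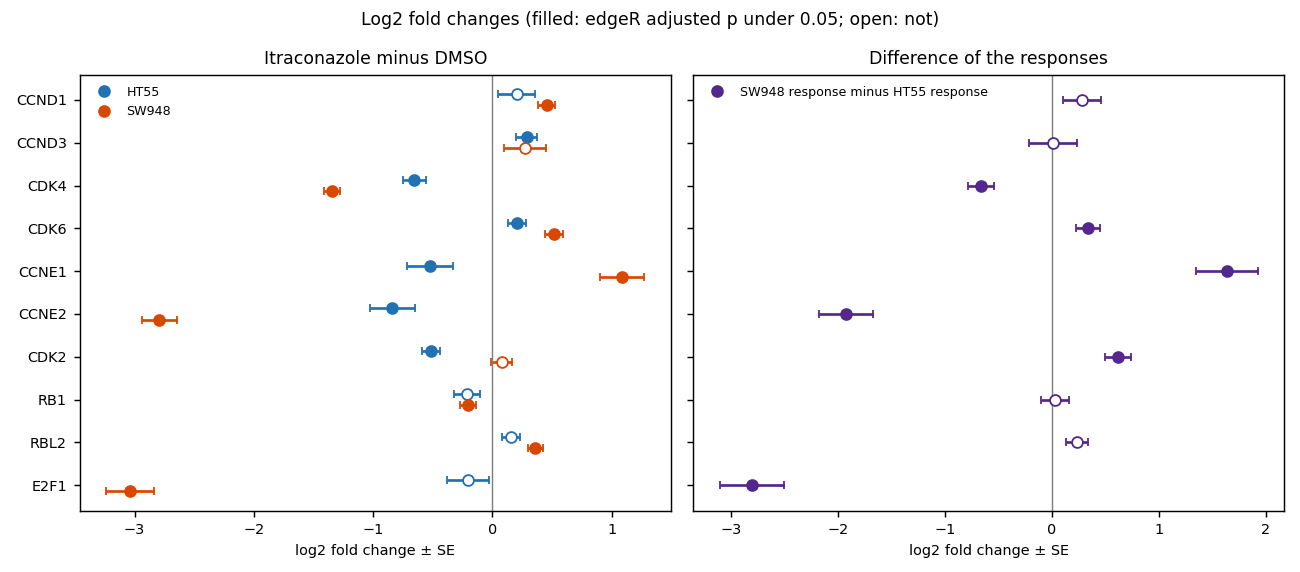
Log2 fold change ± SE from edgeR (horizontal axes) for each gene (vertical axis), itraconazole minus DMSO per line at left and the SW948 response minus the HT55 response at right, filled where the adjusted p was under 0.05. The 2 lines lie on opposite sides of 0 for CCNE1, at -0.52 in HT55 and 1.09 in SW948, and furthest apart for E2F1.

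RB1 and RBL2, the pocket proteins of this set, changed little. RB1 (ENSG00000139687; chromosome 13, 48877880 to 49173572, plus strand), the retinoblastoma protein that binds activator E2Fs, had 175, 193, 178 and 173 CPM in DMSO-treated SW948 and 152, 169, 167 and 150 in treated SW948. The treated libraries were all below the controls, and RB1 fell by 0.21 ± 0.07 (edgeR adjusted p = 0.0106), a call lost in the fit on all 16 libraries (-0.17, edgeR adjusted p = 0.0951). In HT55 it had 155, 149, 155 and 151 CPM with DMSO and 123, 104, 155 and 146 with itraconazole. Replicate 3 was again at the control level, and the change was -0.21 ± 0.11 (edgeR adjusted p = 0.128), or -0.29 without replicate 3 (edgeR adjusted p = 0.0122). Of 8 repeats with a single library removed, the RB1 change in HT55 was called in this 1 only (-0.29 to -0.11). The responses differed by 0.03 ± 0.13 (edgeR adjusted p = 0.85).

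RBL2 (ENSG00000103479; chromosome 16, 53467889 to 53525560, plus strand) encodes p130, the pocket protein that joins the DREAM repressor complex in resting cells. It had 70.6, 72.1, 66.2 and 67.7 CPM in DMSO-treated SW948 and 96.6, 91, 85.1 and 90.9 in treated SW948, with no overlap. RBL2 rose by 0.36 ± 0.06 (edgeR adjusted p = 0.000123). HT55 controls were at 59.7, 62, 57.4 and 58.5 CPM and treated libraries at 65.1, 73.9, 58.5 and 68.4. The change in HT55 was 0.16 ± 0.08 (edgeR adjusted p = 0.112), and 0.23 without replicate 3 (edgeR adjusted p = 0.00796). Of 8 repeats with a single library removed, it was called in this 1 only (0.10 to 0.23). The difference of the responses, 0.23 ± 0.10, did not pass (edgeR adjusted p = 0.0559). For RBL2 it did pass with DESeq2 size factors (0.26, edgeR adjusted p = 0.0335), the DESeq2 Wald test (adjusted p = 0.0235), a minimum of 10 counts in every library (edgeR adjusted p = 0.0368) and a replicate block (edgeR adjusted p = 0.0375). Of 16 repeats with a single library removed it was called in 2. These were without replicate 2 of treated HT55 (0.29, edgeR adjusted p = 0.0161) and without replicate 3 of treated SW948 (0.26, edgeR adjusted p = 0.0399). The RBL2 difference did not pass on plain library totals (0.05, edgeR adjusted p = 0.724) or without a low-count filter (0.23, edgeR adjusted p = 0.224). AKTIP, on the opposite strand, shares 7.51% of the RBL2 exon bases. Per kilobase RB1 was 3.27 times RBL2 in DMSO-treated SW948 (3.12 to 3.38) and 2.21 times in treated SW948 (1.98 to 2.47), a shift without overlap. In HT55 the ratio was 3.24 (3.03 to 3.41) and 2.48 (1.77 to 3.34), with overlap through replicate 3.

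E2F1 (ENSG00000101412; chromosome 20, 32263283 to 32274191, minus strand), the activator at the end of this chain, had the largest fall of the 10 in SW948 and did not pass the test in HT55. In SW948 it had 19.9, 20.4, 29.4 and 19.2 CPM with DMSO and 3.11, 3.48, 2.8 and 1.7 with itraconazole. Treated libraries held 15 to 31 counts each, controls 216 to 338. E2F1 fell by 3.03 ± 0.20 on the log2 scale (edgeR adjusted p = 7.88e-09), to 0.122 times the control level, and the fall ranged from 2.85 to 3.14 when each library was left out. In HT55 the controls were tightly grouped at 53.8, 52.2, 53.9 and 52.4 CPM, and the treated libraries were spread at 37.1, 34.2, 66.5 and 46.7. Replicate 3 was above every control and the other 3 below, and the change of -0.20 ± 0.18 did not pass (edgeR adjusted p = 0.357). Without replicate 3 it was -0.43 (edgeR adjusted p = 0.00126), the only 1 of 8 repeats with a single library removed that was called (-0.43 to -0.08). The responses differed by -2.81 ± 0.30 (edgeR adjusted p = 4.18e-07).

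Against RB1 per kilobase, E2F1 was at 0.833 in DMSO-treated HT55 (0.831 to 0.837) and 0.818 in treated HT55 (0.724 to 1.02). It was at 0.292 in DMSO-treated SW948 (0.253 to 0.396) and 0.0411 in treated SW948 (0.0279 to 0.0501). The groups were apart in SW948 and overlapped in HT55.

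The response of the lines was compared with the test of the difference itself. It passed for 6 of the 10 genes (CCNE1, CCNE2, CDK2, CDK4, CDK6 and E2F1), beside 53.9% of all genes tested, and did not pass for CCND1, CCND3, RB1 and RBL2. For 3 of the 6 the SW948 response was the higher one and for 3 it was the lower one.

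The lines already differed without drug. In SW948 relative to HT55, both with DMSO, 3 of the 10 were higher (42.6% of all genes) and 5 were lower (41.6%). E2F1 was the furthest apart, at 53.1 ± 0.91 CPM in HT55 and 22.2 ± 4.78 in SW948 (SD, n = 4; log2 difference -1.26 ± 0.09, edgeR adjusted p = 2.07e-12). CDK6 (-0.70), CDK4 (-0.62), CCND1 (-0.50) and CDK2 (-0.45) were lower in SW948 as well, each with all libraries apart. RB1 and RBL2 were higher in SW948 by 0.24 and 0.22, and CCNE1 by 0.31 with overlapping libraries and an edgeR adjusted p of 0.0494. That call for CCNE1 was kept in 2 of 8 repeats with a single library removed (0.21 to 0.42), and was lost with DESeq2 size factors (edgeR adjusted p = 0.0531), the DESeq2 Wald test (adjusted p = 0.0906) and the fit on all 16 libraries (edgeR adjusted p = 0.166). CCND3 and CCNE2 did not pass (edgeR adjusted p = 0.173 and 0.381).

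With itraconazole, 2 of the 10 were higher in SW948 (37.8% of all genes) and 4 were lower (38.8%). CCNE1 was higher by 1.96 ± 0.24 on the log2 scale and RBL2 by 0.46 ± 0.09. E2F1 was lower by a difference of -4.06 ± 0.27 (edgeR adjusted p = 5.4e-08), CDK4 by -1.28 ± 0.12 and CDK6 by -0.36 ± 0.08, and CCNE2 was at 0.249 times its HT55 level (edgeR adjusted p = 1.65e-05). CCND1, CDK2 and RB1 were at 309 ± 23.9, 85.7 ± 11.8 and 160 ± 9.94 CPM in treated SW948. In treated HT55 they were at 360 ± 92.5, 76 ± 7.41 and 132 ± 23.3. These differences did not pass in the main fit on 8 libraries (edgeR adjusted p = 0.229, 0.183 and 0.0565). With a single library removed, they were called in 1, 1 and 2 of 8 repeats. Without replicate 3 of treated HT55, CCND1 was lower in SW948 (-0.35, edgeR adjusted p = 0.0136) and RB1 was higher (0.37, edgeR adjusted p = 0.00801). Without replicate 1 of treated SW948, CDK2 was higher in SW948 (0.29, edgeR adjusted p = 0.0193), as was RB1 (0.32, edgeR adjusted p = 0.0478). With every library kept, RB1 also passed in the fit on all 16 libraries (0.27, edgeR adjusted p = 0.0121). It passed as well without a low-count filter (0.27, edgeR adjusted p = 0.037) and with a replicate block (0.29, edgeR adjusted p = 0.0467).

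Ordered by level per kilobase of exon, CDK4 led the 10 genes in both control groups, at 99.9 ± 1.07 CPM per kilobase in HT55 and 65 ± 3.32 in SW948 (SD, n = 4), followed by CCND1 at 65.3 ± 1.37 and 46.2 ± 2.36. With itraconazole CCND1 led in both lines, at 75.5 ± 19.4 and 64.9 ± 5.02. CCND1 and CDK4 overlapped between libraries in treated HT55 but not in treated SW948, where CDK4 was at 26.2 ± 1.52, overlapping RB1 at 24.8 ± 1.54. CCNE1 and CCNE2 were the 2 lowest in every group but treated SW948. There E2F1 at 1.03 ± 0.29 and CCNE2 at 0.442 ± 0.03 were last, and CCNE1 at 6.49 ± 1.57 overlapped CCND3 at 6.64 ± 2.03. With the longest transcript as the length, CDK4 also led in treated HT55, at 105 CPM per kilobase beside 85 for CCND1. That order thus depends on the length used. Levels per kilobase of exon count all exon bases, with the 44.2% of CDK4 and 37% of CCNE2 shared with opposite-strand genes. Whether reads there were set aside is not known, which limits the levels of CDK4 and CCNE2 and the ratios that use them.

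**Figure D4:**
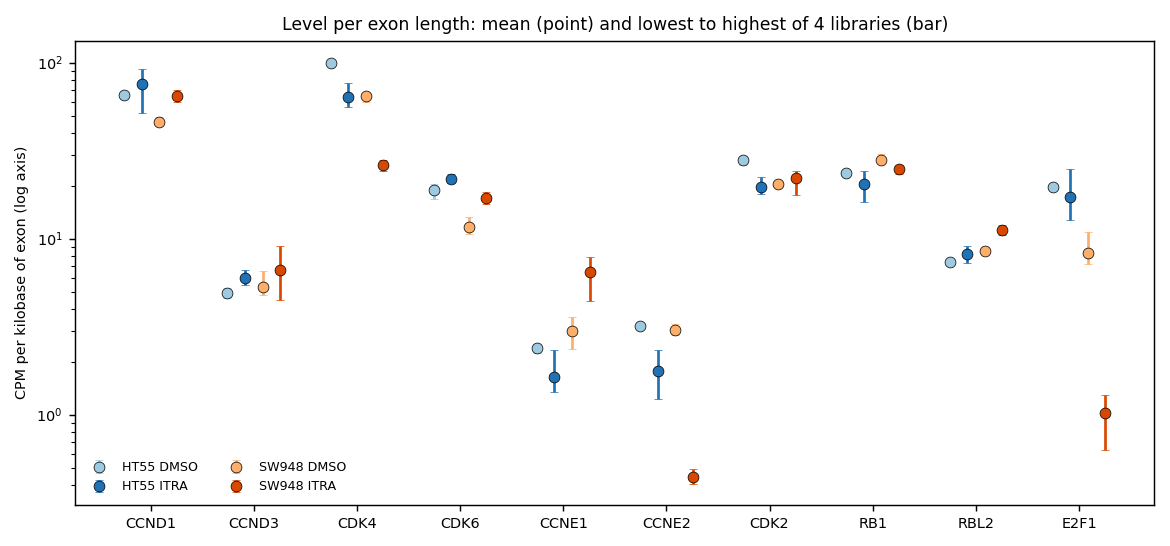
Level of each gene in CPM per kilobase of exon (log axis), with the mean as a point and the lowest to highest of 4 libraries as a bar, by group. In treated SW948 the means of E2F1 and CCNE2 fall to 1.03 and 0.442 CPM per kilobase, below every other mean shown.

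The other genes of the pathway were counted in lists written from general knowledge, to be read against the 27.5% of all genes that rose and 26.5% that fell in HT55, and the 38.9% and 41.3% in SW948. Of 10 other pocket proteins, E2F and DP factors, 1 rose and 6 fell in HT55 and 7 fell in SW948, with median log2 fold changes of -0.38 and -1.14. E2F2, an activator like E2F1, had the largest fall in SW948, from 8.08 ± 2.24 CPM to 0.302 ± 0.17 (SD, n = 4; 10 counts in all 4 treated libraries). RBL1, which encodes the pocket protein p107, had the largest fall in HT55 at -0.95 (edgeR adjusted p = 0.000351) and was at -2.75 in SW948 (edgeR adjusted p = 2.69e-10). E2F5, a repressor, was the one that rose in HT55, by 0.28 (edgeR adjusted p = 0.0472). Of 19 measured E2F target genes of S phase, 18 fell in HT55 and 17 fell and 1 rose in SW948, with medians of -0.53 and -1.11, beside 26.5% of all genes lower in HT55 and 41.3% lower in SW948. SLBP, which binds histone mRNA, was the one that rose (0.49 in SW948). TYMS in HT55 and CDT1 in SW948 did not pass, at -0.24 and 0.30. The HT55 count of falls among these targets was 18 with and without replicate 3 of the treated group.

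Among 6 other G1 cyclins and kinase activators tested, SW948 had 3 that rose and 1 that fell, and HT55 had 1 that rose and 3 that fell, counts that do not set the list apart from all genes (38.9% higher and 41.3% lower in SW948, 27.5% and 26.5% in HT55). CCNA2, the cyclin A of S phase, had the largest rise in SW948, by 1.43 (edgeR adjusted p = 5.52e-09), at 29.2 ± 1.74 CPM with DMSO and 80.3 ± 9.77 with itraconazole. CDK7, the kinase that activates other CDKs, had the largest in HT55, by 0.68 (edgeR adjusted p = 0.0261), and CDK3 had no count in any library. The largest falls were CCNH, the cyclin partner of CDK7, in HT55 (-0.34) and CDC25A, a phosphatase that activates CDK2, in SW948 (-0.38). On plain totals the falls in SW948 were 3, beside 54.6% of all genes lower on that scale.

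Of the CDK inhibitors, beside 38.9% of all genes higher in SW948 and 27.5% in HT55, 5 of 7 in SW948 rose and 2 fell, and in HT55, 4 of 6 tested rose and the other two, CDKN1B and CDKN2C, were at -0.04 and -0.56 and did not pass (edgeR adjusted p = 0.611 and 0.056). CDKN1C, which encodes p57, rose by 4.52 ± 0.24 in SW948 (edgeR adjusted p = 1.08e-09) and by 1.16 ± 0.11 in HT55 (edgeR adjusted p = 1.92e-05). CDKN2D, which encodes p19 and blocks CDK4 and CDK6, rose by 2.16 and 0.35, CDKN1A (p21) by 1.56 and 0.48. CDKN1B (p27) rose by 0.78 in SW948, and the difference from its HT55 response was 0.85 ± 0.10 (edgeR adjusted p = 1.54e-06). CDKN2A, whose p16 product blocks CDK4 and CDK6, rose by 1.03 in SW948 and had 3 to 14 counts per HT55 library. CDKN2B, its neighbor with the same role, rose by 1.55 in HT55 and fell by 0.76 in SW948, and CDKN2C (p18) fell by 0.95 in SW948. CDKN1C and CDKN2D were singled out by the study in these libraries and are not independent evidence of the direction of the list. On plain totals 2 of the inhibitors rose and 2 fell in HT55, beside 18.8% of all genes higher and 38.8% lower on that scale.

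Of 6 ubiquitin ligase parts that turn over G1 cyclins and p27, SW948 had 3 that rose and 2 that fell, and HT55 had 1 and 2, near the shares over all genes (38.9% and 41.3%, 27.5% and 26.5%). SKP2, the F-box protein that marks p27 for destruction and itself an E2F target, fell most in both, by 0.96 (edgeR adjusted p = 0.00155) and 2.56 (edgeR adjusted p = 1.68e-10) on the log2 scale. The largest rises were AMBRA1, which directs the turnover of D cyclins, in HT55 (0.49) and CKS1B, a cofactor of SKP2, in SW948 (0.51). Of 5 measured parts of the MuvB core with MYBL2, the B-MYB partner of that core, SW948 had 2 that rose and 3 that fell, and HT55 had 1 that fell. MYBL2 was the largest fall in each: it fell by 0.71 in HT55 and fell by 1.42 in SW948 on the log2 scale. LIN9 had the largest rise in SW948, at 0.27.

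**Figure D5:**
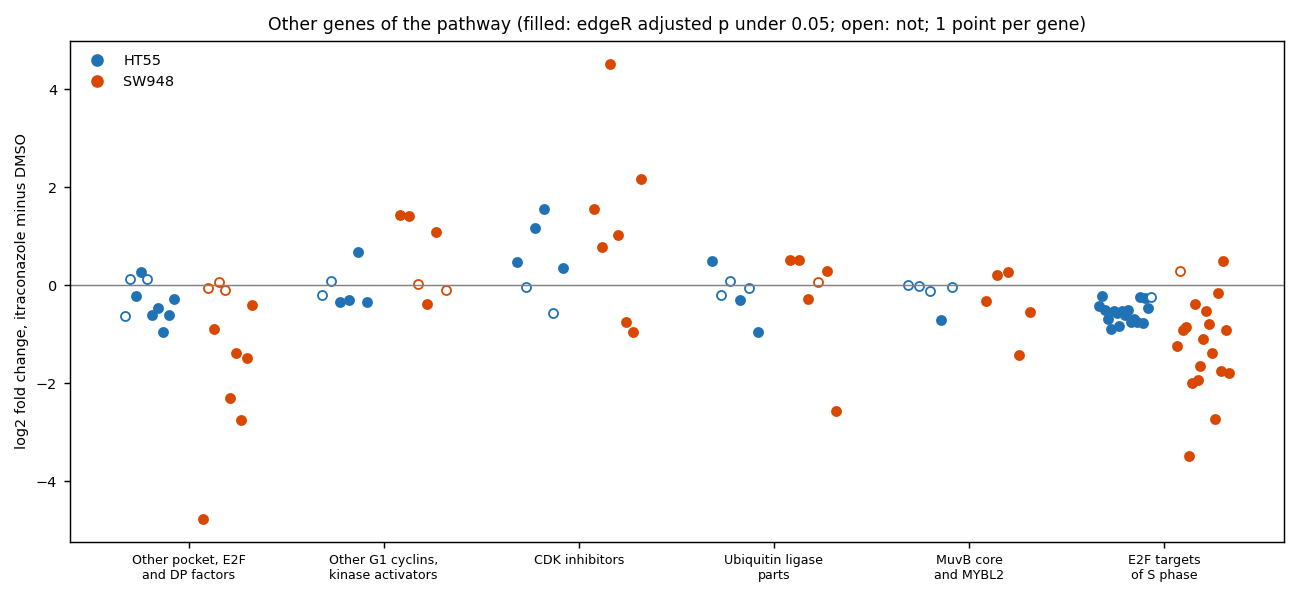
Log2 fold change with itraconazole (vertical axis) for every tested gene of the 6 other pathway lists (horizontal axis), 1 point per gene, blue for HT55 and orange for SW948, filled where the edgeR adjusted p was under 0.05. Most points of the E2F target list are below 0 in both lines, and the inhibitors reach 4.52 (CDKN1C) in SW948.

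The 2 proliferation markers changed in opposite directions in SW948, and their part in the results was not tested. Both proliferation markers were detected, with summed levels of 1160 to 1190 CPM in DMSO-treated HT55, 944 to 1070 in treated HT55, 476 to 576 in DMSO-treated SW948 and 510 to 738 in treated SW948. MKI67 fell by 0.31 in HT55 and 0.92 in SW948 on the log2 scale (edgeR adjusted p = 0.0143 and 2.01e-06). TOP2A had a change of -0.21 in HT55 (edgeR adjusted p = 0.051) and rose by 0.36 in SW948 (edgeR adjusted p = 0.00737). Of 10 colon epithelium markers, SW948 had 5 that rose and 5 that fell, beside 38.9% of all genes higher and 41.3% lower. HT55 had 5 and 1, beside 27.5% and 26.5%. In SW948 their summed level was 6670 to 6970 CPM with DMSO and 8780 to 11000 with itraconazole (9790 to 10100 and 11400 to 12000 in HT55). Of 8 matched markers of other cell types, 2 could be tested per line, and PDGFRB rose in HT55 and CD68 and COL1A1 in SW948. Their summed level was 29.4 to 34.1 and 23.9 to 64.9 CPM in control and treated HT55, and 20.3 to 26.4 and 118 to 123 in SW948, where CD68 made up 110 ± 1.49 CPM of the treated level (SD, n = 4).

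For each gene, the transcripts most like it over the 16 libraries were sought by Pearson r of log2 CPM among 9218 genes. The 16 libraries fall into 4 groups, so r mostly reflects the order of the groups and is given as a description. CCNE2 was like RBL1 (r = 0.994), E2F1 most like EMC10 and HNRNPU (0.992 for each), and CDK4 most like EXTL2 and TFAM (0.993 for each). CCNE1 was most like TUBB2B (0.982) and HNRNPDL (0.965), RBL2 like CXADR (0.985) and CWF19L2 (0.981), and CDK6 like RLIM (0.978) and WWTR1 (0.969). The weaker matches were CCND1 with TXN (0.951) and RAE1 (0.946), CDK2 with SH2B3 (0.946) and CCT2 (0.93), RB1 with CARS2 (0.928) and RING1 (0.927), and CCND3 with RPS19BP1 (0.911) and USF2 (0.886).

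The scaling between libraries bears on the small rises. On plain library totals the median log2 fold change over all genes was -0.18 in HT55 and -0.35 in SW948. CCNE1 in SW948 was then the only one of the 10 called higher in either line, at 0.75 (edgeR adjusted p = 0.0014), and CCND1, CDK6 and RBL2 in SW948 were at 0.12, 0.19 and 0.03. CCND3 and CDK6 in HT55 were at 0.12 and 0.04 and did not pass (edgeR adjusted p = 0.315 and 0.64). The falls of E2F1, CCNE2, CDK4 and RB1 in SW948 and of CCNE1, CCNE2, CDK2 and CDK4 in HT55 passed on either scale.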

How the data were processed

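RNA was sequenced from 16 cultures, 4 per group. Per the study's methods, TruSeq libraries were read single-end at 50 bases and aligned to hg19, and the submitters' processing notes name TopHat, HTSeq and DESeq. The authors deposited raw counts of reads per gene, without normalization. The annotation release and the strand setting are not given in the sources used here. Reads outside genes, ambiguous between genes or not uniquely placed, together 28.2% to 32.9% of all listed reads, were left out of library sizes. In all, 0 columns went unused.

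Here counts were scaled by TMM, filtered by filterByExpr and tested with the edgeR 4.0.16 quasi-likelihood test in R 4.3.3 over all genes, with Benjamini-Hochberg adjusted p under 0.05 as the threshold. Each treatment and line comparison was fitted on its 8 libraries and the difference of the responses on all 16. SE is that of the log2 fold change, derived from the test statistic. CPM came from one TMM scaling of all 16 libraries, and levels per kilobase used the union of exons in GENCODE on GRCh37. Ratios had 0.5 added to each count, and likeness used a prior count of 2 and genes averaging 3 or more in log2 CPM. The steps were run on simulated data with far fewer changed genes and 1 dispersion for all genes. Error rates under the spread of these libraries were not measured. Alternatives were DESeq2 1.42.0 (size factors, Wald test), plain library totals, other filters, a threshold of 0.01, 1 fit on all 16 libraries, a replicate block and leaving out each library. List counts on plain totals and without replicate 3 of treated HT55 were added after seeing the data. limma 3.58.1 was loaded by edgeR.

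All 10 genes are named, with all CDK inhibitors and, for each other list and line, called genes with the largest rise or fall, genes below the filter, and the 2 transcripts most like each of the 10. One gene that this rule names is not reported here. TSPAN31 and INTS8 were chosen after their values were seen. The genes and lists were chosen with earlier results of these data known. The study calls the cultures biological replicates and the labels only number them, so p-values measure the spread between these samples. Reads carry no molecular identifiers.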

Additional observations from a re-analysis of the deposited data

Results flagged for a closer look

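In 4-sample groups, the highest or lowest library was compared with the others by its gap over the group's range. Of 68 groups examined, over 40 sets of CPM values and 28 sets of ratios, 2 passed Dixon's limit at the 95% level, and chance gives about 1 in 20. Both concern E2F1 in replicate 3 of DMSO-treated SW948 and are not independent, since the ratios use the same counts. That library had 29.4 CPM of E2F1 (gap over range 0.882) and a log2 ratio of E2F1 to RB1 per kilobase of -1.34 (0.834). In SW948 E2F1 fell by 2.85 to 3.14 on the log2 scale when each library was left out, and fell by 3.03 with all 8.

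The response to itraconazole differed between the lines by the test of the difference itself for 6 genes. The SW948 response minus the HT55 response on the log2 scale was 1.64 for CCNE1, -1.93 for CCNE2, 0.62 for CDK2, -0.66 for CDK4, 0.34 for CDK6 and -2.81 for E2F1. Each was called in all 16 repeats with 1 library removed.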

How the results depend on the processing

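On plain library totals the median of all genes moved to -0.18 in HT55, -0.35 in SW948, -0.23 for the difference of responses and 0.20 between DMSO-treated lines. The share of genes called higher and lower went from 27.5% and 26.5% to 18.8% and 38.8% in HT55, and from 38.9% and 41.3% to 25.1% and 54.6% in SW948. The count of the 10 genes called higher was then 0 in HT55 (edgeR; 2 with TMM) and 1 in SW948 (4 with TMM). Signs turned for RBL2 in HT55 (-0.012), CCND3 and CDK2 in SW948 (-0.07 and -0.26), the differences of responses for CCND3 and RB1 (-0.19 and -0.17) and CCNE2 between DMSO-treated lines (0.11). In HT55 the count higher was 1 without a filter, 1 in the fit on all 16 libraries and 0 at an adjusted p under 0.01. Leaving out each library gave 1 to 4 higher in HT55, the 4 without replicate 3 of treated HT55. It gave 3 to 5 for the difference of responses, the 5 without replicate 2 of treated HT55, and 2 to 4 between treated lines, the 4 without replicate 1 of treated SW948. The difference of responses for CCND3 ranged from -0.18 to 0.17 and for RB1 from -0.066 to 0.11, and CCND3 between treated lines from -0.038 to 0.32. Counts of the 10 genes called lower stayed within 1.5 times under every alternative run. The causes were not tested.

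The labels do not say whether replicate numbers pair the samples. Correlations of same-numbered deviations were -0.165 to 0.155, which cannot decide it, since low correlations can also occur between paired cultures. With a replicate block, RBL2 passed for the difference of responses (0.24, edgeR adjusted p = 0.0375) and RB1 between treated lines (0.29, edgeR adjusted p = 0.0467), and no other call among the 10 genes changed. CCNE2 and E2F1 in treated SW948 rest on 14 to 31 counts per library, and CCNE1 in HT55 on 28 to 60, which limits the precision of their folds.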
